A study of Mus musculus with 11 samples.

Results

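The cytosolic ribosomal protein genes were followed across RPE/choroidal samples of aged mice that had or had not received nanosecond laser treatment. They were chosen from the gene names alone: every name of the count table that starts with Rps or Rpl and a number, together with Rplp0, Rplp1, Rplp2 and Rpsa, and without the Rps6k kinases and names marked as pseudogenes. This gave 84 of the 14602 genes in the table. Of these, 34 were named as proteins of the small (40S) subunit and 50 as proteins of the large (60S) subunit. The rule also took in Rps19bp1, which encodes a protein that binds Rps19 and is not itself part of the ribosome, and Rps4y2, an older name of Rps4l, which the annotation lists as a pseudogene. The 6 naïve control and 5 laser treated libraries came from C57BL/6J mice. The treated mice were 9 months old when they received the 2RT nanosecond laser, and tissue was taken 3 months later, at 12 months. Naïve controls were untreated and were also 12 months old. The neural retina had been removed, so each library holds RNA of the RPE, a single layer of pigmented cells behind the photoreceptors, together with the choroid, its vascular bed. In such bulk samples, fewer cells of a type and less RNA per cell cannot be told apart.

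Ribosomes translate all cellular mRNA, and each 40S and 60S subunit is built from ribosomal RNA and a fixed set of proteins that are needed in matched amounts. The 40S subunit reads the mRNA, and the 60S subunit joins the amino acids and holds the tunnel through which the new protein leaves. Most ribosomal protein mRNAs begin with a run of pyrimidines, the 5′ terminal oligopyrimidine (TOP) tract, through which the mTORC1 pathway and Larp1 control their translation together.

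RNA was pre-amplified with a SmartSeq v4 kit before the libraries were made. The libraries held 25700881 to 38755994 counts, of which the members together took 0.290% to 0.592%. Levels in single libraries are in CPM, a gene's counts scaled to the TMM adjusted size of the library. All 12 RPE markers examined, such as Rpe65 and Rgr, were present, and their summed level was 93775 to 130561 CPM in naïve control and 76964 to 126296 CPM in laser treated libraries. Rod and other neural retina markers were also found, at 7266 to 31129 CPM in naïve control and 5221 to 20979 CPM in laser treated libraries, and 3 of the 12 were lower after laser at an unadjusted p under 0.05, as were 7.68% of all genes. Of 6 Schwann cell markers, 4 were higher at that threshold, as were 8.24% of all genes. Whether these cell mixtures play a part in the ribosomal protein levels was not tested.

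For the ribosomal protein genes, 2 libraries stood apart from the others of their group. Laser treated 5 had the highest level of the 5 laser treated libraries in 73 of the 84 members, whereas it was highest in 21.1% of all genes. Its CPM was a median of 1.96 times the mean of laser treated 1 to 4 across the members, and it lay above the mean of the naïve controls in 70 members. Naïve control 6 was the lowest control for 71 members, at a median of 0.603 times the mean of the other 5 controls. Over all 11 libraries, naïve control 6 was the lowest for 9 members, compared with 6.40% of all genes. The share of all genes was not counted for its place among the controls. Nor was it counted for laser treated 5 above the control mean. The summed neural retina markers were at 5261 CPM in laser treated 5 and 7266 CPM in naïve control 6, and laser treated 1 and 2 were also low, at 5221 and 6241 CPM. Their part in the levels of these libraries was not tested. Counts, medians and the fold changes of most genes named below are therefore also given without laser treated 5. That library was singled out by its level in these same genes. Leaving it out lowers most of their values by that choice and gives no support for a decrease. For many genes the smallest decrease found with a single library left out is given as well.

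**Figure D1:**
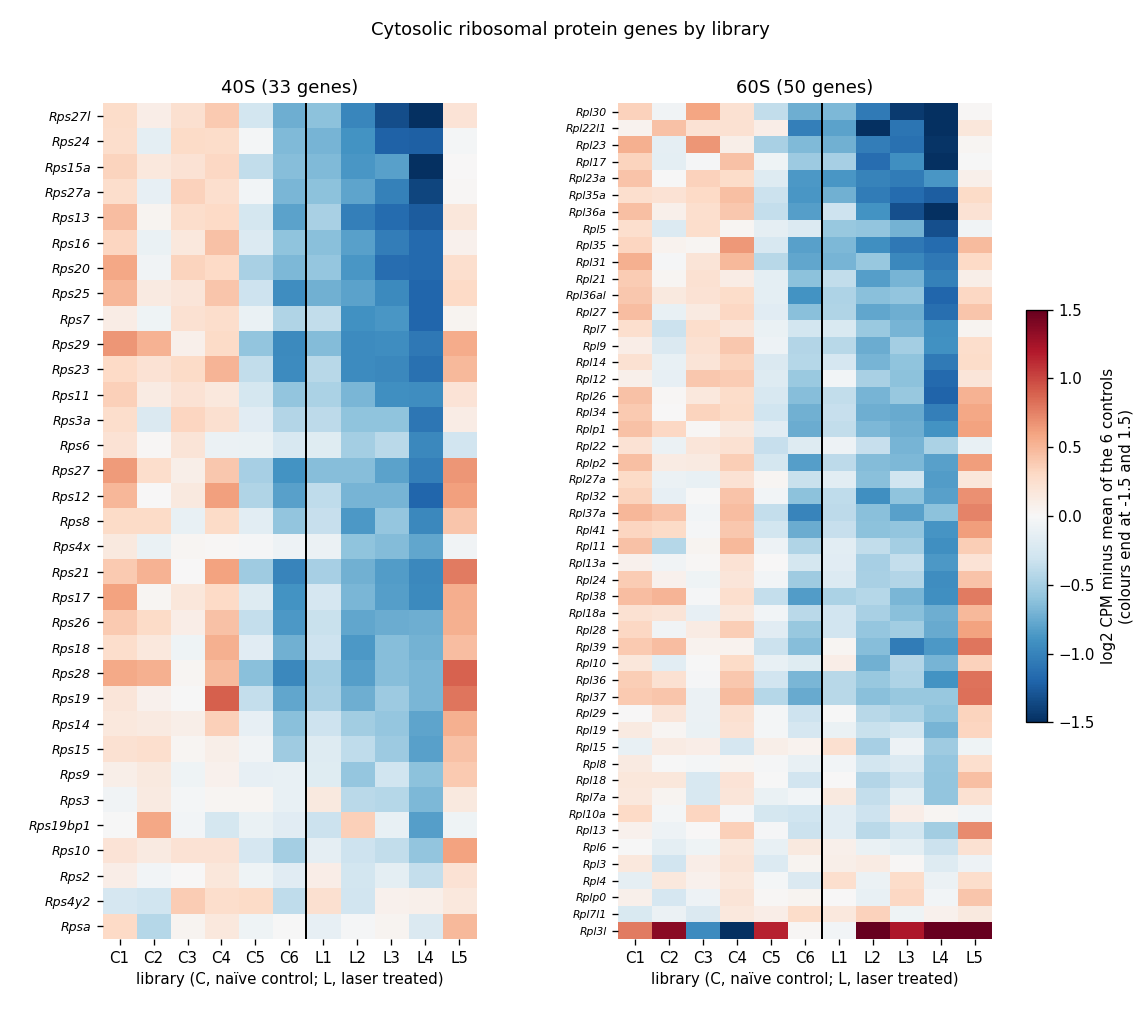
Log2 CPM of 33 of the 34 genes named for the 40S and all 50 named for the 60S subunit (rows, ordered by log2 fold change) in the 6 naïve control and 5 laser treated libraries (columns), minus the mean of the controls; red is higher and blue is lower. Laser treated 1 to 4 and naïve control 6 are blue for most genes, laser treated 5 is red for most, and Rpl3, Rpl4, Rplp0 and Rpl7l1 near the bottom stay pale in all columns.

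Most members shared the high and low libraries described above, and Rpl3, Rpl7l1 and Rps19bp1 were among the 11 members in which laser treated 5 was not the highest laser treated library and among the 13 in which naïve control 6 was not the lowest control. The summed level of all 84 was 3439, 4920 and 5547 CPM at the lowest, the median and the highest naïve control. In laser treated 1 to 5 it was 3843, 3172, 3202, 2665 and 5755 CPM. The groups overlapped, since laser treated 5 lay above every control and naïve control 6 lay below laser treated 1. Laser treated 4 was the lowest of all 11 libraries for 62 members, whereas it was the lowest for 14.6% of all genes, and laser treated 5 was the highest of all 11 for 36 members, compared with 9.30% of all genes.

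The groups were compared gene by gene with edgeR's quasi-likelihood test over the whole table. The standard error (SE) beside each log2 fold change is that of the fit. The log2 fold change of laser treated over naïve control was negative for 78 of the 84 members, compared with 51.5% of all genes. The median was -0.35 over the members and -0.02 over all genes. No member passed an adjusted p of 0.05, and neither did any other gene (0% of 14602). The smallest adjusted p of a member was 0.181, for Rps24. At an unadjusted p under 0.05, 22 members (26.2%) were lower and none was higher, whereas 7.68% of all genes were lower and 8.24% higher at that threshold. DESeq2, run on the same counts, called 2 of the 84 members, Rps24 and Rpl30, both lower. That share is near the 1.79% of all genes that it called as lower. In no member were the CPM of the groups free of overlap, against 0.863% of all genes with every laser treated library below every control.

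Without laser treated 5, the median log2 fold change of the members was -0.66 and 61 of 84 (72.6%) were lower at an unadjusted p under 0.05, compared with 8.79% of all genes. Again no member had an adjusted p under 0.05, and no gene was called lower (0%). The smallest adjusted p of a member was then 0.0961. The count of members lower at an unadjusted p under 0.05 was 13 without naïve control 1 and 12 without laser treated 2, 3 or 4. Without laser treated 4 the median log2 fold change of the members was -0.25. The share of all genes was not counted for those fits. In 7 members (8.33%), laser treated 1 to 4 all lay below every control, which was so for 1.75% of all genes. These were Rpl5, Rpl23, Rpl23a, Rps9, Rps15a, Rps16 and Rps24. This count also leaves out the library that was singled out by its level in the members. The first line of the transcript files carries a label, R1 or R2, that divides the libraries into 3 controls with laser treated 1 and 2 (R1) and 3 controls with laser treated 3 to 5 (R2). Within R1 the median log2 fold change was -0.67, with 77 members negative and 47 lower at an unadjusted p under 0.05, compared with 50.7% and 9.49% of all genes. Within R2, which holds naïve control 6 and laser treated 5, it was -0.13, with 62 members negative and none lower at that threshold, compared with 47.1% and 3.28% of all genes. Of the initiation factor genes described below, Eif2s3y of the Y chromosome had the smallest p within R1. The highest log2 fold change of that list within R1 was 12.8. Over all 11 libraries Eif2s3y averaged 21.8 ± 33.9 CPM in naïve control and 26.7 ± 24.6 CPM in laser treated libraries (mean ± SD). The sex of the mice is not given in the sources used here, and its part in these values was not tested.

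**Figure D2:**
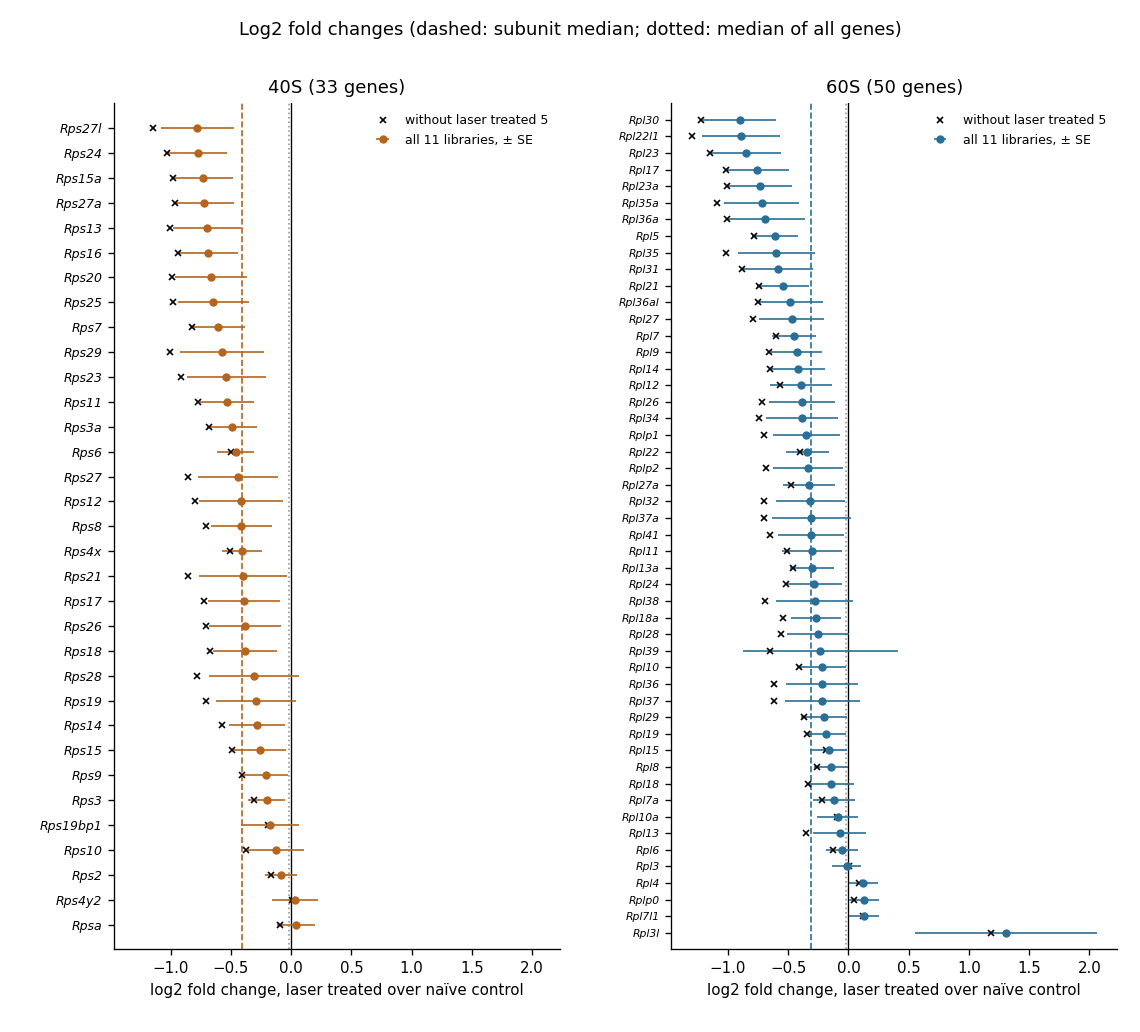
Log2 fold change of laser treated over naïve control for the same 33 genes of the 40S (left) and 50 of the 60S (right) subunit, with bars of 1 standard error from edgeR; crosses give the value without laser treated 5, the dashed line the median of the subunit and the dotted line that of all genes. Medians were -0.41 for 40S and -0.31 for 60S, and crosses lie further to the left for nearly every gene.

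Log2 fold changes of the 40S genes were slightly lower than those of the 60S genes. In the 40S subunit 32 of 34 genes had a negative log2 fold change, the median was -0.41, and 13 (38.2%) were lower at an unadjusted p under 0.05. In the 60S subunit 46 of 50 were negative, with a median of -0.31, and 9 (18%) were lower at that threshold, compared with 7.68% of all genes. Without laser treated 5, the medians were -0.71 and -0.62, and 28 (82.4%) of the 40S and 33 (66%) of the 60S genes were lower, compared with 8.79% of all genes. With all libraries the medians differed by -0.10, and by -0.13 to -0.09 when single libraries were left out. The difference was -0.0020 within R2. Per library, the mean log2 CPM of the 40S genes minus that of the 60S genes averaged 0.03 ± 0.08 over the 6 controls and -0.08 ± 0.04 over the 5 laser treated libraries (mean ± SD). It was -0.07, -0.10, -0.13, -0.10 and -0.01 in laser treated 1 to 5. In naïve control its lowest, median and highest values were -0.08, 0.06 and 0.11. Naïve controls 5 and 6, which had the lowest ribosomal protein levels among the controls, also had the only 2 negative values among the controls, and laser treated 5, with the highest level, had the value nearest 0 among the laser treated libraries. The groups overlapped.

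**Figure D3:**
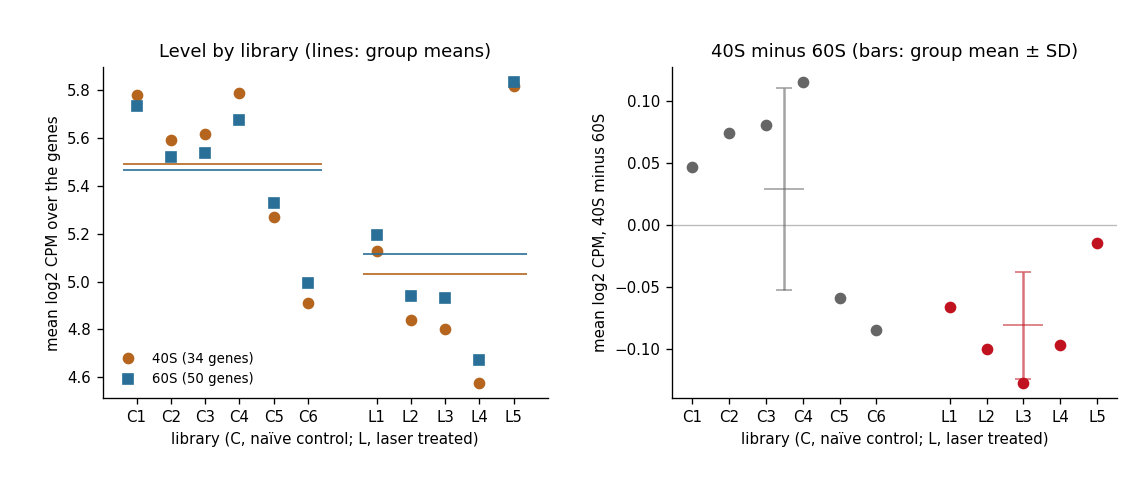
Left, mean log2 CPM of the 40S (circles) and 60S (squares) genes in each library, with lines at the group means; right, the 40S mean minus the 60S mean in each library, with bars of the group mean ± SD. Laser treated 5 has the highest level of all libraries, and the right panel runs from 0.11 in naïve control 4 to -0.13 in laser treated 3.

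In the 40S subunit, the members with the smallest p were Rps24, Rps6, Rps27a, Rps15a and Rps16. Rps24, whose protein takes part in the maturation of the small subunit RNA, was at 33.9, 58.4 and 65.5 CPM at the lowest, the median and the highest control. Its levels in laser treated 1 to 5 were 33.1, 28.8, 23.0, 22.9 and 52.5 CPM, so laser treated 5 alone lay within the range of the controls. The log2 fold change was -0.78 (SE 0.24, unadjusted p = 0.0065 and adjusted p = 0.181 in edgeR), and -1.03 without laser treated 5 (adjusted p = 0.0961). It was -0.68 without laser treated 3.

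Rps6, the substrate from which the ribosomal S6 kinases take their name, had laser treated 5 below the controls as well. Its controls were at 59.2, 68.4 and 81.8 CPM (lowest, median, highest), and laser treated 1 to 5 were at 61.7, 49.2, 53.0, 35.7 and 57.4 CPM. Only laser treated 1 lay within the controls' range. The log2 fold change was -0.46 (SE 0.15, unadjusted p = 0.0102, adjusted p = 0.203 in edgeR) with all libraries and -0.50 without laser treated 5. It was -0.37 without laser treated 4.

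Rps27a, which is translated as a fusion of ubiquitin with a 40S protein, averaged 70.5 ± 16.6 CPM over the 6 controls and 42.8 ± 16.4 CPM over the 5 laser treated libraries (mean ± SD). Its log2 fold change was -0.72 (SE 0.24, adjusted p = 0.203). Rps15a and Rps16, structural proteins of the small subunit, averaged 92.7 ± 23.3 and 33.7 ± 8.50 CPM over the 6 controls (mean ± SD). Over the 5 laser treated libraries they averaged 55.7 ± 21.4 and 20.9 ± 7.86 CPM. Their log2 fold changes were -0.73 and -0.69 (adjusted p = 0.203 and 0.221). For all 3 genes laser treated 5 was at 69.4, 90.1 and 34.1 CPM, close to the mean of the controls, and the other laser treated libraries were lower. Without it the log2 fold changes of Rps27a, Rps15a and Rps16 were -0.96, -0.98 and -0.94. Without laser treated 4 they were each -0.60.

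Rps20 and Rps23 were shown in the study together with Rps24, Rpl30 and Rpl22l1 as leading genes of translation. They were chosen on these libraries and are no independent evidence of a direction. Rps20 was at 26.5, 46.7 and 63.4 CPM at the lowest, the median and the highest control and at 28.3, 23.2, 19.3, 18.9 and 50.7 CPM in laser treated 1 to 5 (log2 fold change -0.66, SE 0.30, adjusted p = 0.296). Rps23, whose protein lies at the decoding site, was at 17, 39.2 and 46.7 CPM in the controls and at 24.6, 17.1, 16.8, 15.1 and 46 CPM in laser treated libraries (log2 fold change -0.54, SE 0.32, adjusted p = 0.455). In both genes the groups overlapped through laser treated 5 and naïve control 6. Their log2 fold changes were -0.99 and -0.92 when laser treated 5 was left out. That of Rps20 was -0.54 without naïve control 1, and that of Rps23 was -0.42 without laser treated 4.

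In the 60S subunit, the members with the smallest p were Rpl5, Rpl30, Rpl23, Rpl17 and Rpl23a. Rpl5 encodes a protein that carries the smallest ribosomal RNA into the large subunit and also binds Mdm2. Its controls were at 87.6, 97.3 and 121 CPM, and laser treated 1 to 5 were at 68.1, 66.8, 61.5, 40.6 and 97.6 CPM. Laser treated 5 was the only laser treated library within the range of the controls. The log2 fold change was -0.61 (SE 0.19, unadjusted p = 0.00702, adjusted p = 0.185 in edgeR), and -0.78 without laser treated 5. It was -0.48 without laser treated 4.

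Rpl30, whose protein also binds the selenocysteine insertion element of mRNAs, had the lowest log2 fold change of the members, -0.90 (SE 0.30, adjusted p = 0.203). It was at 47.8, 85.0 and 120 CPM at the lowest, the median and the highest control and at 49.7, 38.3, 29.3, 25.3 and 80.4 CPM in laser treated 1 to 5. Laser treated 1 was just above the lowest control, naïve control 6, and laser treated 5 was near the controls' median. The log2 fold change without that library was -1.23, and it was -0.77 without laser treated 4. Rpl23, Rpl17 and Rpl23a followed with log2 fold changes of -0.85, -0.76 and -0.74 (adjusted p = 0.209, 0.210 and 0.217), and -1.15, -1.02 and -1.01 without laser treated 5. Rpl23 was at -0.71 without naïve control 3, Rpl17 at -0.63 without laser treated 4 and Rpl23a at -0.65 without naïve control 1. Rpl17 and Rpl23a encode proteins at the tunnel through which new proteins leave. Rpl23a was at 21.9, 20.0, 19.4 and 21.9 CPM in laser treated 1 to 4 and at 42.3 CPM in laser treated 5, with 22.2, 44.3 and 53.9 CPM at the lowest, the median and the highest control.

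The P stalk, which recruits elongation factors to the ribosome, is formed by Rplp0, Rplp1 and Rplp2. Rplp0 was at 121, 147 and 164 CPM at the lowest, the median and the highest control and at 144, 133, 178, 140 and 192 CPM in laser treated 1 to 5 (log2 fold change 0.13, SE 0.12, adjusted p = 0.699). Rplp1 was at 44.8, 79.6 and 102 CPM in the controls and at 57.9, 46.8, 45.2, 40.4 and 114 CPM after laser (log2 fold change -0.35, SE 0.28, adjusted p = 0.595). Rplp2 had a log2 fold change of -0.34 (SE 0.29, adjusted p = 0.634), with laser treated libraries at 30.6, 25.6, 25.3, 22.8 and 62.0 CPM. None of the 3 passed the test. Without laser treated 5 the log2 fold changes were 0.04, -0.70 and -0.69. Those of Rplp1 and Rplp2 were each -0.24 without laser treated 4.

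The log2 fold change was above 0 in 6 members: Rplp0, Rpl4, Rpl7l1, Rpl3l, Rpsa and Rps4y2. Rpl4, whose protein lines the exit tunnel, averaged 88.2 ± 9.55 CPM over the 6 controls and 96.1 ± 12.4 CPM over the 5 laser treated libraries (mean ± SD; log2 fold change 0.12, SE 0.12, adjusted p = 0.698). Rpsa, a 40S protein also known as the laminin receptor, was at 62.7 ± 10.1 and 64.5 ± 13.2 CPM (log2 fold change 0.04, adjusted p = 0.936), and without laser treated 5 its value was -0.09. Rps4y2 had a log2 fold change of 0.03 (adjusted p = 0.963), which was -0.22 once the trend with GC content was removed. These values were all within 1 standard error or close to it, except that of Rpl3l, which rests on few counts.

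Of the gene pairs in which a ribosomal protein has a paralog, 6 were listed. Rpl22 averaged 28.1 ± 4.61 CPM over the 6 controls and 22.2 ± 3.89 CPM over the 5 laser treated libraries (mean ± SD; log2 fold change -0.34, SE 0.18, adjusted p = 0.370). Its paralog Rpl22l1 was at 39.6, 90.4 and 109 CPM at the lowest, the median and the highest control and at 46.2, 27.2, 37.9, 26.0 and 90.6 CPM in laser treated 1 to 5 (log2 fold change -0.89, SE 0.33, adjusted p = 0.222). In the controls other than naïve control 6, Rpl22l1 was at 83.5 to 109 CPM, and of the laser treated libraries only laser treated 5 reached that range. Without laser treated 5 the log2 fold changes were -0.40 for Rpl22 and -1.30 for Rpl22l1. Rpl22 was at -0.26 without laser treated 3, and Rpl22l1 at -0.75 without laser treated 2. Rps27 and Rps27l had log2 fold changes of -0.44 and -0.78 (adjusted p = 0.578 and 0.244), and Rpl36a and Rpl36al of -0.69 and -0.49 (adjusted p = 0.322 and 0.416). Without laser treated 5 they were -0.86 and -1.15 for Rps27 and Rps27l and -1.01 and -0.75 for Rpl36a and Rpl36al. Without laser treated 4 they were -0.62 for Rps27l, -0.54 for Rpl36a and -0.36 for Rpl36al. Rps27 was at -0.30 without naïve control 1. The difference between the members of a pair was not tested.

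In the other 3 pairs one gene had a log2 fold change near 0. Rpl7 averaged 132 ± 23.7 CPM over the 6 controls and 96.6 ± 25.9 CPM over the 5 laser treated libraries (mean ± SD; log2 fold change -0.45, SE 0.18, adjusted p = 0.248), and Rpl7l1 was at 117 ± 17 and 127 ± 13.1 CPM (log2 fold change 0.13, SE 0.12, adjusted p = 0.695). Rps4x was at 35.5 ± 2.24 and 26.8 ± 6.40 CPM (log2 fold change -0.41, adjusted p = 0.262), with laser treated 1 and 5 within the range of the controls and laser treated 2 to 4 below it. Rpl3, a protein of the catalytic centre of the large subunit, was at 93.6 ± 12.5 and 92.6 ± 8.12 CPM (log2 fold change -0.02, SE 0.12, adjusted p = 0.969). Its laser treated libraries spanned 81.2 to 101 CPM, inside the controls' range of 76.1 to 106 CPM.

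Rpl3l is known as the form of Rpl3 in skeletal and heart muscle. It was at 0.12, 1.2 and 2.31 CPM at the lowest, the median and the highest control and at 0.842, 5.41, 2.08, 2.69 and 3.97 CPM in laser treated 1 to 5, from 4 to 199 counts a library (log2 fold change 1.31, SE 0.75, adjusted p = 0.429). The groups overlapped. Of the 9 skeletal muscle markers examined, all were listed, and their sum was 42.5 to 540 CPM in naïve control and 59.2 to 804 CPM in laser treated libraries, with the 2 highest values, 804 and 799 CPM, in laser treated 2 and 5, which were also highest in Rpl3l. The part of muscle RNA in the Rpl3l level was not tested.

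**Figure D4:**
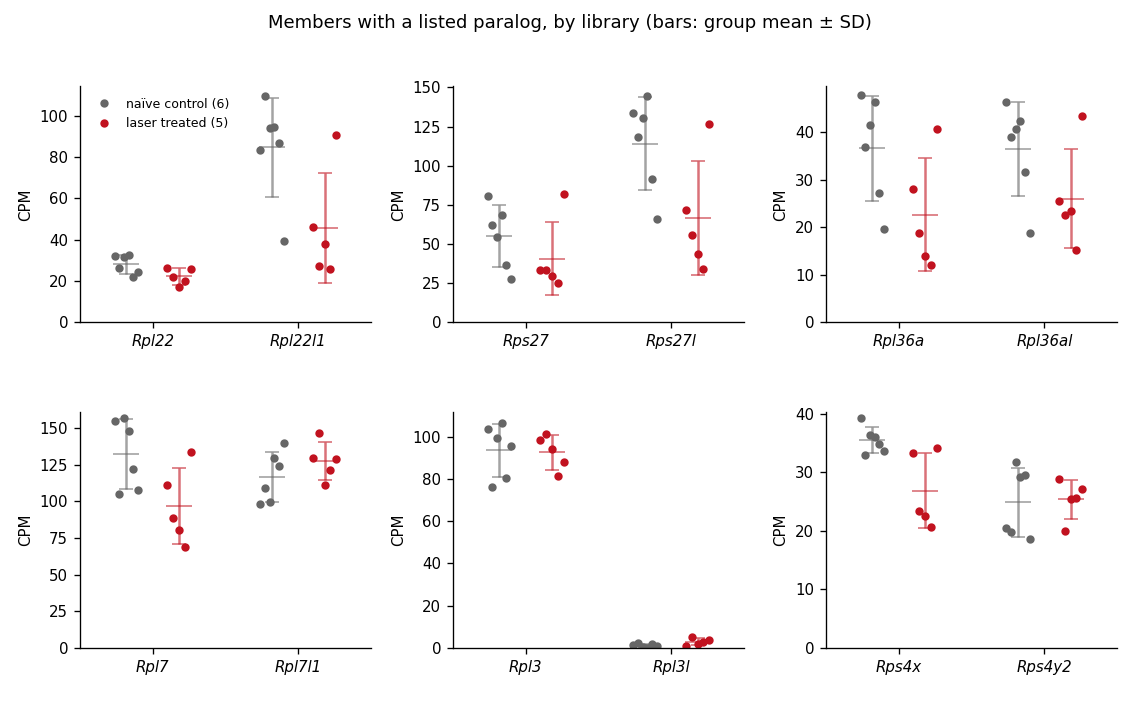
CPM in each naïve control (grey, n = 6) and laser treated (red, n = 5) library for the 6 pairs of paralogs, with bars of the group mean ± SD and axes that start at 0. Rpl22l1 and Rps27l show the widest gap between groups, Rpl3 and Rpl7l1 show none beyond their spread, and Rpl3l is near 0 in every library.

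Levels were compared between genes as CPM per kb of annotated transcript. Rpl41, the smallest protein of the ribosome, was highest in the 60S subunit at 209 CPM per kb, followed by Rplp1 at 140. In the 40S subunit Rps14 was highest at 206 and Rps27l second at 185. Lowest were Rpl3l at 1.47 and Rpl39 at 2.06 in the 60S subunit and Rps20 at 9.99 and Rps15a at 14.7 in the 40S subunit. Rps20 and Rps15a have annotated transcripts of 3706 and 5179 bases for coding sequences of 357 and 390 bases, which lowers their value per kb. The TPM of the transcript files gave another order: Rpl41 and Rpl3l kept the first and last place in the 60S subunit, but Rpl39, at 0.599 to 2.31 CPM over the 11 libraries, ranked 4 of 50 by TPM, and Rps20 ranked 3 of 34. Rpl39 had 21 to 77 counts a library, and 86.5% of the 50-base words of its coding sequence also occur in other annotated transcripts.

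Such sharing was the rule in these genes. In 69 of the 84 members at least 50% of the 50-base words of the coding sequence occur in another transcript of the annotation, in 31 members all of them do, and 81 members share words with at least 1 annotated pseudogene. Counts of these genes depend on how reads with several matches were treated, which is not given in the sources used here, so their levels are uncertain.

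The members have shorter transcripts than most genes. Their annotated transcripts had a median of 832 bases, against 2842 bases over all genes with an annotated length. Among the other 1332 genes with a transcript no longer than 1106 bases, 76.1% had a negative log2 fold change, with a median of -0.28, and 15.2% were lower at an unadjusted p under 0.05. When the trend of each library with transcript length was removed before the fit, the median log2 fold change of the members became -0.06, 47 of 84 were negative, and 15 (17.9%) were lower at an unadjusted p under 0.05, compared with 47.8% negative and 6.23% lower of all genes with a length. Spearman's rho of the log2 fold change with transcript length was 0.17 over the 84 members and 0.039 over the genes with a length. Removal of the trend with GC content left the median at -0.39, with 78 members negative and 17 (20.2%) lower at an unadjusted p under 0.05. Over the 14252 genes with a length the median was then 0.04, 6519 were negative and 3.19% were lower.

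Within the members, long coding sequences and a high GC content went with log2 fold changes closer to 0. Over the 83 members with a coding sequence, Spearman's rho of the log2 fold change with coding length was 0.43, and with GC content it was 0.54 over 84 members. Over all genes these values were 0.15 and 0.47. The points share the same 11 libraries and are not independent. The 10 members with the longest coding sequences, 798 to 1257 bases, had a median log2 fold change of -0.03. They include Rpl3, Rpl4, Rplp0, Rpsa and Rpl6, and also Rpl5 at -0.61, Rpl7 at -0.45 and Rpl3l at 1.31. The 10 with the shortest, 75 to 291 bases, had a median of -0.31, close to that of all members, and 1 was lower at an unadjusted p under 0.05. The 10 with the lowest GC content, 40.6% to 46%, had a median of -0.64 and 7 of them were lower at an unadjusted p under 0.05, and the 10 with the highest, 56.8% to 60.8%, had a median of -0.17 and none. Among those with the lowest GC content were Rps24, Rpl22l1, Rps20 and Rps23.

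**Figure D5:**
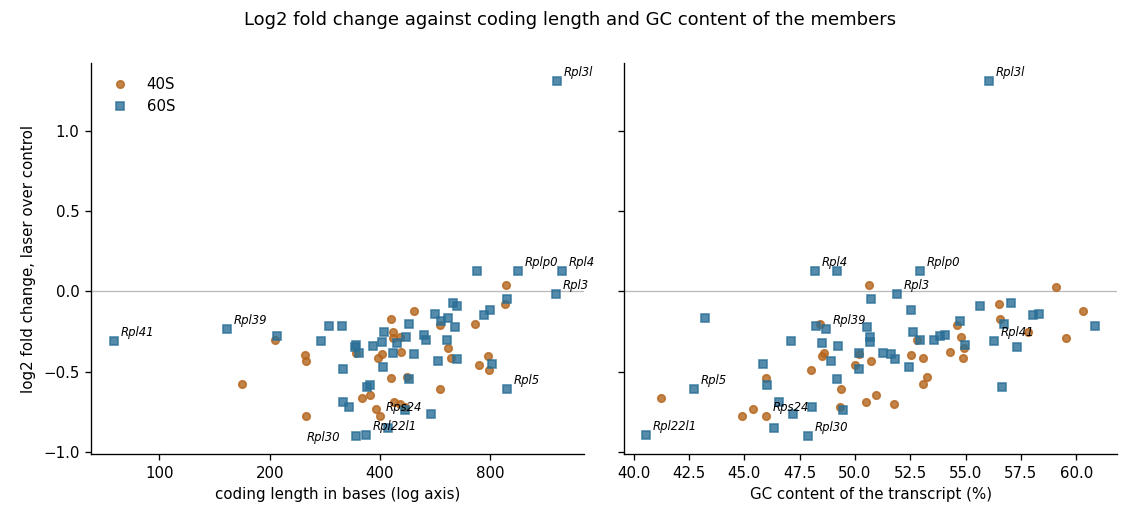
Log2 fold change of each member against its coding length in bases (left, log axis) and the GC content of its annotated transcript in percent (right), with 40S genes as circles and 60S genes as squares. Among the longest coding sequences most values lie near 0, with Rpl5 and Rpl7 lower and Rpl3l higher, and the lowest values lie at a GC content under 50%.

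The start of the mRNA was examined because the TOP tract is the feature by which these genes are known to be controlled together. RefSeq promoters of GRCm38.p6 were found for 63 of the 84 members. A C at an annotated start followed by at least 4 bases that are C or T, read on the gene's own strand, was found in 13 of the 63 (20.6%) and in 3.04% of the 11120 genes of the count table with such a promoter. With a run that begins up to 3 bases either way, it was 25 of 63 (39.7%) against 15.1% of those 11120 genes. The 25 members with such a run had a median log2 fold change of -0.39 and the other 38 of -0.30, and the ranges overlapped from -0.85 to -0.12. The following windows hold 15 bases before and 15 bases from the annotated start, 5′ to 3′, with the run in capitals. They are shown for genes among those with the smallest p or in the study's own display, first those with a run and then Rps16, Rpl5 and Rpl23, in which it was not found, and last for 4 genes with a log2 fold change above 0, in which it was not found either. Nor was it found at the annotated starts of Rpl3l.
Rps6 (chr4:86857353-86857382, minus strand): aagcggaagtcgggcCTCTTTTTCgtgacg
Rps15a (chr7:118116133-118116162, minus strand): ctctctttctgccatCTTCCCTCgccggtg
Rps24 (chr14:24490663-24490692, plus strand): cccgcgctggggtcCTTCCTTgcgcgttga
Rps23 (chr13:90923107-90923136, plus strand): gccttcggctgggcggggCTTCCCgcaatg
Rpl22l1 (chr3:28805493-28805522, plus strand): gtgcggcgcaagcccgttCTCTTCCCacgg
Rps16 (chr7:28350674-28350703, plus strand): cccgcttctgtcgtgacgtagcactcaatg
Rpl5 (chr5:107900513-107900542, plus strand): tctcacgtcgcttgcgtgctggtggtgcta
Rpl23 (chr11:97782425-97782454, minus strand): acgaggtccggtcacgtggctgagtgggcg
Rplp0 (chr5:115559452-115559481, plus strand): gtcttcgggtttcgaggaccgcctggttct
Rpl4 (chr9:64173372-64173401, plus strand): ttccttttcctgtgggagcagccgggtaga
Rpsa (chr9:120127751-120127780, plus strand): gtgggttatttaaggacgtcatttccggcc
Rpl7l1 (chr17:46782642-46782671, minus strand): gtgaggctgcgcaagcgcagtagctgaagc
An annotated start can lie some bases away from the start used in the tissue. The absence of a run says only that none begins within 3 bases of the annotated start. In the windows of Rpl4 and Rps16, such a run begins more than 3 bases before the annotated start.

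Other genes of translation were examined as lists. Among ribosomal proteins that the name rule leaves out, Fau had a log2 fold change of -0.32 (SE 0.25, adjusted p = 0.591) and Gnb2l1, now named Rack1, of -0.02 (SE 0.15, adjusted p = 0.963). Of 16 other genes with TOP mRNAs, such as elongation factors and eIF3 subunits, 6 were lower and 2 higher at an unadjusted p under 0.05, compared with 7.68% and 8.24% of all genes, and the median log2 fold change was -0.13. The counts were the same without laser treated 5, where 1284 of all 14602 genes were lower and 1297 higher. The smallest p was that of Eif3e, a subunit of the initiation factor eIF3, with 144 ± 23.5 CPM over the 6 controls and 102 ± 21.1 CPM over the 5 laser treated libraries (mean ± SD; log2 fold change -0.50, adjusted p = 0.181).

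Of 57 initiation factor genes, 11 were lower (19.3%) and 3 higher (5.26%) at an unadjusted p under 0.05, compared with 7.68% and 8.24% of all genes, with a median log2 fold change of -0.12. The counts were 10 and 4 without laser treated 5, where 1284 of all 14602 genes were lower and 1297 higher. In this list Eif2s2, the beta subunit of eIF2, had a log2 fold change of -0.63 (SE 0.15, adjusted p = 0.172). Of 75 mitochondrial ribosomal proteins, which serve translation inside mitochondria, 15 were lower (20%) and 1 was higher, with a median of -0.26, and without laser treated 5, 28 were lower (37.3%) and 1 was higher, with a median of -0.29. Of all genes 7.68% were lower with all libraries and 8.79% without laser treated 5. The lowest p among them was that of Mrpl18, at -0.58 (SE 0.15, adjusted p = 0.172). With the length trend removed, the median of the mitochondrial ribosomal proteins was -0.11.

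Genes that make or regulate ribosomes were examined as further lists. Of 42 ribosome biogenesis genes, 4 were lower and 4 were higher at an unadjusted p under 0.05, with a median log2 fold change of 0.08. That is 9.52% each way, near the 7.68% and 8.24% of all genes. Without laser treated 5 the counts were 5 and 5, where 1284 of all 14602 genes were lower and 1297 higher. The median of this list was 0.0016 without naïve control 4. Npm1, nucleophosmin, was among the lower, with 199 ± 33.9 CPM over the 6 controls and 133 ± 21.4 CPM over the 5 laser treated libraries (mean ± SD; log2 fold change -0.58, SE 0.14, adjusted p = 0.172). Of 12 genes of the mTORC1 pathway with Larp1, 1 was lower (8.33%) and 2 were higher (16.7%), with a median of 0.16, and the counts were the same without laser treated 5. The median was 0.052 with the GC trend removed. The lower one was Rheb, the GTPase that activates mTORC1, at 243 ± 22.8 and 181 ± 28.4 CPM (log2 fold change -0.43, SE 0.12, adjusted p = 0.174). No gene of these lists had an adjusted p under 0.05 in edgeR.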

How the data were processed

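RPE/choroidal RNA of 6 naïve control and 5 laser treated C57BL/6J mice was measured. A table of raw counts per gene was deposited by the authors, 1 column a library, and for each library a file of assembled transcripts with TPM, in which every transcript has 1 exon. The submitters' processing notes name bcl2fastq 2.18.0.12, Trim Galore, STAR 2.5.3a, featureCounts 1.5.3, StringTie 1.3.3 and edgeR 3.22.3 and the builds mm10 and GRCm38. The roles of the tools, the strand setting, the read length and the treatment of reads with several matches are not given in the sources used here. The log2 fold changes, average abundance, F statistics, p-values and FDR of the authors' own comparison were deposited in the same table and were not used. No column of other samples was present.

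Counts of all 14602 genes were fitted with edgeR 4.0.16 in R 4.3.3 (TMM, filterByExpr, which removed no gene and so no member, robust quasi-likelihood test) and p-values were adjusted over all genes by the Benjamini-Hochberg method, at a threshold of 0.05. The common biological coefficient of variation was 0.58. TPM were summed per gene and tested with limma 3.58.1 on log2(TPM + 1), so that fold changes of low genes are understated. Lengths, GC content and shared 50-base words came from GENCODE M21 on GRCm38, with 1 transcript a gene. Of the 14602 genes, 14252 had a length. The depth behind each value is the total count of its library. Each standard error was derived from the log2 fold change and the F statistic of the fit, so it includes the spread between libraries. Where nothing more is said of the animals, p-values measure the spread between these samples.

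Genes named in the text are the 5 that the study shows, in each subunit the 5 lower members with the smallest p and the 2 highest and 2 lowest per kb, members with a log2 fold change above 0, paralogs, the stalk with Rpsa, and the gene with the smallest p of each list. Rps9, Rpl6 and Eif2s3y were named after their values were seen, as was Rps19bp1 where its high and low libraries are described. Values of 1 member and of 1 listed gene are not reported here, although counts and medians include them. The members, lists and tests were chosen with earlier results of these data known. Alternatives were DESeq2 1.42.0, other scalings and filters, limma voom, TPM, blocks and labels, removed length and GC trends (loess, span 0.3), other member lists and each library left out. The fit was also run on simulated counts with known changes, and the outcome is not given here.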

Additional observations from a re-analysis of the deposited data

Results flagged for a closer look

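In each group of libraries, Dixon's ratio was used to ask whether the highest or lowest library lay apart from the rest, for the 32 named members and 4 summaries of the subunits. Of 72 groups of values, 7 had such a library, where chance gives about 5%. In 6 of the 7 it was laser treated 5, and the value was high. Laser treated 5 had 42.3 CPM of Rpl23a, against 19.4 to 21.9 CPM in laser treated 1 to 4. For Rpl41 it had 149 CPM, against 52.3 to 75.6 CPM. For the stalk genes Rplp1 and Rplp2 it had 114 and 62.0 CPM, against 40.4 to 57.9 CPM and 22.8 to 30.6 CPM. For Rps14 it had 190 CPM, against 76.0 to 105 CPM, and for Rps27 it had 81.8 CPM, against 25.4 to 33.3 CPM. The remaining one was Rpl22l1 in naïve control 6, at 39.6 CPM where the other controls had 83.5 to 109 CPM. These genes share their libraries, so the 7 values are not independent of each other.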

How the results depend on the processing

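The negative median log2 fold change of the members, -0.35, lay between -0.66 and -0.25 when single libraries were left out, and the count of members lower at an unadjusted p under 0.05, 22, between 12 and 61. No member had an adjusted p under 0.05 in any fit except DESeq2, which called 2 of 84, near its share of 1.79% of all genes called lower. Within R1, 47 members were lower and 1 was higher at an unadjusted p under 0.05, and within R2 0 were lower and 40S minus 60S was -0.0020. With the transcript length trend removed, 47 members were negative. With log2 TPM at a pseudocount of 1 or 0.1, 4 members were lower and 3 higher, and 40S minus 60S was -0.30 or -0.39. With genes at a TPM of at least 1 in every library, which kept 56 members, 40 were negative, 5 lower and 2 higher, and 40S minus 60S was -0.20. Shares of all genes were not counted for the TPM fits, nor without single libraries other than laser treated 5. Those counts of members therefore have no background beside them. The share of members with a pyrimidine run was 20.6%, and 39.7% when the run could begin 3 bases either way. The causes were not tested.

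Of the list medians, that of the other TOP genes was 0.013 with log2 TPM at either pseudocount, that of the mTORC1 genes 0.052 with the GC trend removed, and that of the initiation factors 0.023 with the GC trend removed and -0.0049 with the block as well. The ribosome biogenesis median lay between 0.0016 and 0.11 when single libraries were left out.

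Same-numbered libraries of the groups had correlations of their deviations of -0.0093, 0.12, 0.28, -0.0094 and -0.0084. Those of libraries with different numbers ran from -0.20 to 0.23. These few values do not decide whether the numbers pair the samples. With the replicate block, in which naïve control 6 has no partner, 29 members were lower at an unadjusted p under 0.05 and the median was -0.54, and Rps4y2 was at -0.025. The share of all genes was not counted with the block.

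Directions of 14 of the 32 named members changed under some setting. With log2 TPM at a pseudocount of 1 and 0.1, the log2 fold changes were 0.53 and 1.3 for Rpl23a, 0.84 and 0.99 for Rpl3, 0.48 and 0.51 for Rpl36a, 1.58 and 2.08 for Rpl39, 0.46 and 0.55 for Rplp2, 0.033 and 0.48 for Rps16, and 1.18 and 2.41 for Rps27l, and with a TPM of at least 1 in every library that of Rpl36a was again 0.48. Within R2 they were 0.20 for Rpl39, 0.021 for Rpl41, -0.10 for Rpl7l1, 0.064 for Rplp1, 0.048 for Rplp2 and 0.069 for Rps27, and within R1 0.13 for Rpl3 and -0.040 for Rpsa. With the length trend removed they were 0.048 for Rpl3, 0.070 for Rpl39, 0.12 for Rpl41, 0.049 for Rplp1, 0.087 for Rps14, 0.010 for Rps27 and -0.0080 for Rpsa. With limma voom Rpl3 was at 0.040. With the GC trend removed Rps4y2 was at -0.22, and with the block as well at -0.29. With single libraries left out, Rpl3 lay between -0.070 and 0.016, Rps4y2 between -0.057 and 0.11 and Rpsa between -0.091 and 0.10.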
